A study of Mus musculus with 3 samples.

Results

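The transcripts described here encode subunits, activators and assembly factors of the proteasome. They were the transcripts of a deposited RPKM table whose mouse gene symbol begins with Psm, a letter from a to g and a digit, with the interferon-induced Psmb8 and Psmb9 left out. This took 36 of the 16383 transcripts, belonging to 32 of 10916 genes. Psmc3ip, which encodes a partner protein of meiotic recombination, and Psme2b, a retrogene copy of Psme2, match the symbol without being proteasome subunits and were kept out of all counts and medians. The remaining 34 transcripts belong to 30 genes, and 26 of them, each of a different gene, averaged at least 1 RPKM over the libraries and entered the test. The other 8 were listed at 0 in every library, so the threshold on low values removed no member with a signal.

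The study compared whole lungs of wild-type mice (WT, 1 library) with lungs labelled as double knockout for the RNA-binding proteins Lin28a and Lin28b (DKO, 2 libraries called DKO 1 and DKO 2), all on a mixed C57BL/6J background. By the labels, tamoxifen in the DKO lungs had activated a creERT recombinase driven from Nkx2.1, a gene of lung epithelium, which cut out a loxP-flanked exon. Whether the WT lung carried loxP sites or the recombinase, or received tamoxifen, is not given in the sources used here, and neither are age, sex and the number of animals. The RNA came from the whole organ, so cells in which the recombinase is silent contributed to every value, and fewer cells of a type cannot be told apart from less RNA per cell.

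The proteasome is the barrel-shaped protease that degrades ubiquitin-tagged proteins. Its core particle stacks outer rings of alpha subunits (Psma genes), which gate the entrance, on inner rings of beta subunits (Psmb genes), some of which cut peptide bonds. A regulatory particle caps the core: its base (Psmc ATPases and some Psmd subunits) unfolds the substrate and threads it into the core, and its lid (other Psmd subunits) removes the ubiquitin chain. Alternative caps (Psme genes) open the core without ATP, and dedicated chaperones (Psmg genes and some Psmd genes) help to assemble the particles.

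To show what precedes these genes, the 250 bases upstream of the annotated start are printed for the abundant core genes Psmb6 and Psmb3 and for Psmc1, the base gene with the highest mean level. These were chosen by level, and the sequences are those of RefSeq on GRCm38.p6. Capitals mark matches on either strand to the 5 motifs searched. The last bases of the Psmb6 window, with its match to the antioxidant response element core, lie inside the annotated gene interval given with its values. The entry for Psmd7, the lid gene of highest level, was not among the sequences used here.
Psmb6 (chr11:70525107-70525356, plus strand): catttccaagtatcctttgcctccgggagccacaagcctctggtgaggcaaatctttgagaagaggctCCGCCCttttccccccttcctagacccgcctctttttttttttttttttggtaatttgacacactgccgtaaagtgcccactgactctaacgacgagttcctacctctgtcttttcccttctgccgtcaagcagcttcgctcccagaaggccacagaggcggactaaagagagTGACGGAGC
Psmb3 (chr11:97703184-97703433, plus strand): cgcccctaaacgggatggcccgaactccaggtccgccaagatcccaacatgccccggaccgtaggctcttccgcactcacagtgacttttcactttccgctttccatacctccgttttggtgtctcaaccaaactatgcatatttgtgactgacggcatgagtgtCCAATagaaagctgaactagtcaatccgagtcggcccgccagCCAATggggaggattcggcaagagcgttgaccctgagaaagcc
Psmc1 (chr12:100109952-100110201, plus strand): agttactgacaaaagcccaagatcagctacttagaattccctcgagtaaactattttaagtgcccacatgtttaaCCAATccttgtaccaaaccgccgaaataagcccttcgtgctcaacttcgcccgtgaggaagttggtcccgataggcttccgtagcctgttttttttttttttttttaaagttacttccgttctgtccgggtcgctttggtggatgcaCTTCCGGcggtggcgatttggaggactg

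The motifs were TGACNNNGC (the core of the antioxidant response element, which NRF1 and NRF2 recognise), CCAAT (bound by NF-Y), CCGGAAG (an ETS site), CACGTG (an E-box) and GGGCGG (an Sp1 box). Psmb6 held a match to the antioxidant response element core and an Sp1 box, Psmb3 held 2 CCAAT boxes, and Psmc1 held a CCAAT box and an ETS site. Of the 30 genes, 23 had 26 promoter entries. The CCAAT box occurred in 42.3% of these entries against 33.8% of all 32851 RefSeq promoter windows of the same length, and the Sp1 box in 46.2% against 32.7%. The ETS site occurred in 23.1% against 6.9%, the E-box in 11.5% against 6.0%, and the antioxidant response element core in 7.7% against 10.2%. The 2 genes with that last match were the catalytic subunit genes Psmb5 and Psmb6. The matches overlapped between motifs in none of the 3 sequences printed, and a match describes letters only.

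Depth was estimated from low values at about 48600000 reads (WT), 30800000 (DKO 1) and 34100000 (DKO 2). Every member at or above 9 RPKM then stood for at least about 515 reads in each library. Differences of a few percent remained within counting error for Psmb2, Psmc5 and Psmd13 in DKO 2. In the table as a whole, limma called 2 of 2066 tested transcripts (0.0968%). The lung epithelial gene Sftpc was one of them, with 369 RPKM (WT), 7.55 (DKO 1) and 0.0364 (DKO 2). Nkx2-1 was listed at 0 in all 3 for each of its transcripts, and such zeros can be failed estimates. Lin28b had 0.449 RPKM (WT), 0.187 (DKO 1) and 0.590 (DKO 2), all below the threshold of 1 RPKM and not tested. The value in the library labelled DKO 2 was not below that in WT. A value for the whole transcript in whole lung cannot show whether an exon was lost in the epithelium. Lin28a was not analysed here. The Y-linked transcripts of 4 genes were listed at 0 in WT and summed to 22.3 RPKM in DKO 1 and 8.11 in DKO 2, so sex and genotype cannot be told apart. The 2 DKO libraries also differed from each other in cell-type markers. The 10 erythroid genes summed to 20202 RPKM (WT), 28714 (DKO 1) and 102773 (DKO 2), and the leukocyte genes to 41.7, 379 and 193 RPKM. The 6 liver genes summed to 7.54, 11.3 and 183 RPKM and the 7 heart genes to 28.9, 19.4 and 111 RPKM, so that both sums were highest in DKO 2. The albumin gene Alb measured 0 RPKM (WT), 0.654 (DKO 1) and 14.8 (DKO 2). The part of these cell types in the member differences between DKO 1 and DKO 2 was not tested.

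Proteasome transcripts were abundant in all 3 lungs, and no member passed the test for a difference between DKO and WT. Over the 26 tested members, 0 passed limma with Benjamini-Hochberg adjustment (adjusted p of 0.999 for each), and 0 had an unadjusted p under 0.05. The SE of the log2 difference lay between 0.66 and 0.92 in a fit with 1 residual degree of freedom. Its spread was moderated towards the trend over all tested transcripts. That spread came from the DKO libraries alone, since WT had 1 library. The members summed to 10573 RPKM (WT), 7613 (DKO 1) and 10614 (DKO 2). The total in DKO 1 was thus 0.720 of that in WT, and the total in DKO 2 was 1.004 of it. The sum over all tested transcripts was 1.05 and 1.30 of that in WT. It was 375726 RPKM in WT and 488409 in DKO 2, of which tested erythroid transcripts made 20201 and 102773 RPKM. The median difference of the members on the log2(RPKM + 1) scale was −0.46 in DKO 1 and 0.01 in DKO 2, beside −0.01 and 0.04 over all tested transcripts. All members are compared with the same WT library, so their differences are not independent of one another.

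**Figure D1:**
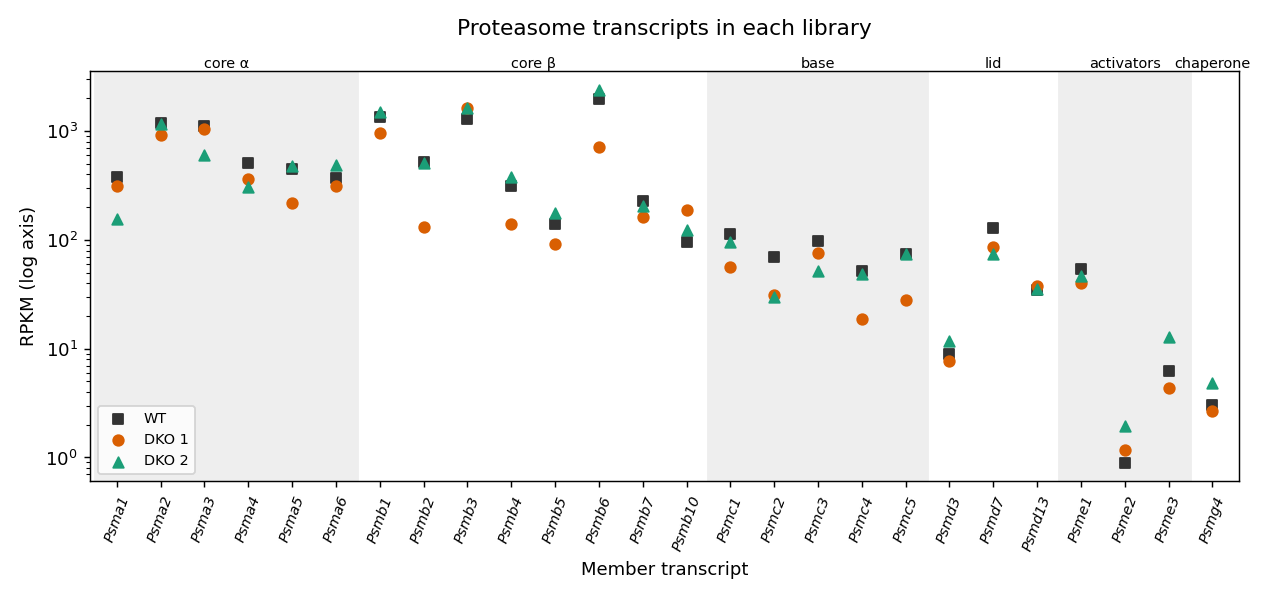
RPKM of the 26 tested member transcripts (log axis) in WT (squares), DKO 1 (circles) and DKO 2 (triangles), grouped by role; each point is 1 library. Core subunits lie highest, with medians in WT, DKO 1 and DKO 2 of 480, 313 and 483 RPKM, and base subunits lower, at 75.0, 31.3 and 52.0 RPKM.

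DKO 1 held the lowest value of the 3 libraries for 16 of the 26 members (61.5%), against 32.2% of all tested transcripts. Among transcripts averaging 50 RPKM or more the share was 43.0%, and 11 of the 18 members at that level had their lowest value in DKO 1. DKO 2 held the lowest value for 6 members (35.1% of all tested transcripts) and WT for 4. In DKO 1, 7 members lay at least 2-fold below WT (10.0% of all tested transcripts), namely Psma5, Psmb2, Psmb4, Psmb6, Psmc2, Psmc4 and Psmc5. In DKO 2, 2 members did (18.1% of all tested transcripts), Psma1 and Psmc2. Both DKO libraries lay below WT for 13 of 26 members, against 31.0% of all tested transcripts, and above WT for 4, against 32.1%. With the threshold at 50 RPKM, 10 of 18 members were below WT in both, against 32.7%.

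The tested alpha ring genes spanned a narrower range of levels than the beta genes, and the base genes a narrower one still. Across the 6 tested alpha genes, the highest level was 3.2 times the lowest in WT, 4.8 times in DKO 1 and 7.4 times in DKO 2. In the same order it was 14.3, 17.7 and 13.4 times for the 7 standard beta genes. For the 5 tested base genes it was 2.2, 4.0 and 3.2 times. Psma2 stood at 1185 RPKM (WT), 924 (DKO 1) and 1156 (DKO 2), and was the highest alpha gene in WT and DKO 2. Psma3 (chromosome 12, 70969283 to 70995877) had 1126, 1041 and 607 RPKM in the same order, so that WT and DKO 1 lay close together and DKO 2 apart. Psma1 (chromosome 7, 114264550 to 114276116) showed the same arrangement more widely, with 383, 313 and 157 RPKM, and DKO 2 held 0.409 of its WT level (exact binomial 95% interval 0.398 to 0.420, counting error only). Psma4 had 513 RPKM (WT), 364 (DKO 1) and 308 (DKO 2). For these 4 of the 6 tested alpha genes both DKO libraries were below WT, beside 31.0% of all tested transcripts. The count was 3 with quantile normalization. It was 5 with median scaling, TPM or scaling without haemoglobin and mitochondrial transcripts. The share of all tested transcripts in these settings ran from 34.5% to 41.1%.

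Psma5 (chromosome 3, 108256926 to 108279952) was arranged differently. It had 447 RPKM (WT), 219 (DKO 1) and 481 (DKO 2), so that DKO 1 alone stood low. Psma6 had 370, 314 and 485 RPKM and was likewise lowest in DKO 1. No alpha gene was above WT in both DKO libraries, beside 32.1% of all tested transcripts. The alpha median difference was −0.33 in DKO 1 and −0.38 in DKO 2, and the summed alpha level was 0.789 and 0.794 of that in WT. Psma7, an alpha subunit that no standard core lacks, was listed at 0 in all 3 libraries for both of its transcripts. Zeros of this kind can be failed estimates. Its annotated transcripts overlap, but the cause of these zeros was not tested. Psma8, an alternative alpha subunit of male germ cells, was also listed at 0 throughout.

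Of the 7 standard beta ring genes, 6 had their lowest value in DKO 1 and 0 in DKO 2, beside 32.2% and 35.1% of all tested transcripts, and 43.0% lowest in DKO 1 among those averaging at least 50 RPKM. Psmb6, which encodes the caspase-like catalytic subunit (chromosome 11, 70525324 to 70527858), was the highest member in WT, with 1979 RPKM, against 722 in DKO 1 and 2400 in DKO 2. Its level in DKO 2 was 3.32 times that in DKO 1, and WT lay between them. Psmb5, the chymotrypsin-like catalytic subunit and the main target of bortezomib (chromosome 14, 54614120 to 54617995), had 139 RPKM (WT), 92.5 (DKO 1) and 179 (DKO 2). Psmb7, the trypsin-like catalytic subunit (chromosome 2, 38588046 to 38643952), had 226, 163 and 204 RPKM, and its DKO libraries were both below WT. Catalytic genes thus differed 14.3-fold in level within WT, from Psmb5 to Psmb6, which were the lowest and highest of the standard beta genes.

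The structural beta genes differed among themselves in the same libraries. Psmb2 (chromosome 4, 126677637 to 126709715) had 516 RPKM (WT), 133 (DKO 1) and 509 (DKO 2). DKO 1 held 0.258 of its WT level (exact binomial 95% interval 0.249 to 0.267, counting error only), the lowest ratio of any member in either DKO library, while DKO 2 was at 0.986 of WT (0.965 to 1.01), a difference not detectable at this depth. Psmb4, whose product guides the joining of core precursors, had 311, 140 and 383 RPKM. Psmb1 had 1346, 973 and 1495 RPKM. Both genes were lowest in DKO 1 and highest in DKO 2. Psmb3 (chromosome 11, 97703434 to 97713500) was the exception, with 1291 RPKM in WT and nearly equal higher values of 1637 in DKO 1 and 1639 in DKO 2. The limma difference of Psmb2 was −0.98 (SE 0.92, adjusted p = 0.999) and that of Psmb3 was 0.34 (SE 0.72, adjusted p = 0.999). Both DKO libraries were below WT for 2 of the 7 standard beta genes, beside 31.0% of all tested transcripts, and for 6 of 7 with values rescaled to TPM, where the share of all transcripts was 41.1%. The summed level of the standard beta genes was 0.665 of WT in DKO 1 and 1.17 of WT in DKO 2.

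**Figure D2:**
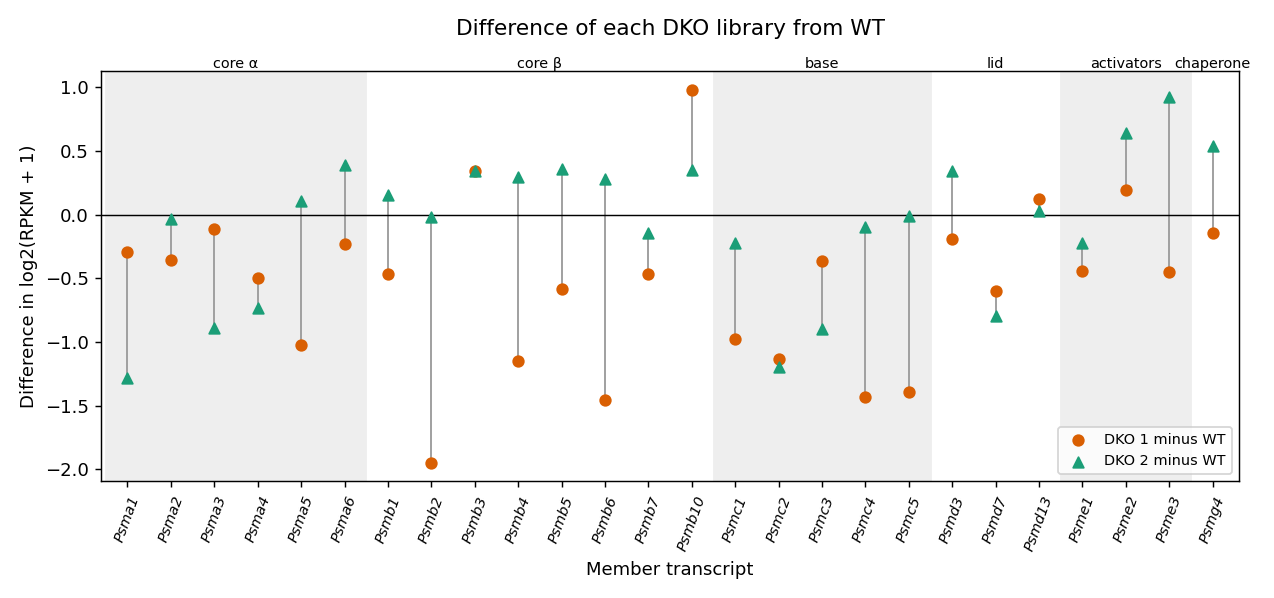
Difference of DKO 1 (circles) and DKO 2 (triangles) from WT in log2(RPKM + 1) for each tested member, with a grey line joining the 2 libraries and 0 marking WT. All 5 base genes lie below 0 in both libraries (4 of 5 with quantile normalization), and Psmb2 shows the widest gap, from −1.95 in DKO 1 to −0.02 in DKO 2.

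Psmb10 encodes the catalytic subunit that replaces that of Psmb7 in the immunoproteasome, the form made under interferon and in blood cells (chromosome 8, 105935728 to 105938392). It had 95.7 RPKM (WT), 190 (DKO 1) and 122 (DKO 2), so both DKO libraries were above WT, with DKO 1 highest (log2 difference 0.66, SE 0.81, limma adjusted p = 0.999). Of the 17 interferon genes listed, which include the members Psmb10, Psme1 and Psme2, all had a transcript in the table, 7 were listed at 0 in every library, and 5 transcripts were tested, of which 0 passed; B2m and Gbp2 were the tested genes that are no members. Psmb8 measured 0.252 RPKM (WT), 0.133 (DKO 1) and 0 (DKO 2), and Psmb9 was listed at 0 in all 3. Beta-2 microglobulin (B2m) had 107, 78.6 and 136 RPKM, and the interferon-induced GTPase gene Gbp2 had 0.234, 2.76 and 2.06 RPKM. Gbp2 was higher than WT in both DKO libraries, whereas B2m was lower in DKO 1 and higher in DKO 2.

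The tested leukocyte markers lay mostly on the same side of WT as Psmb10. Of 13 leukocyte genes listed, 12 had a transcript and 6 were tested. Of these 6, 5 lay above WT in both DKO libraries, beside 32.1% of all tested transcripts. The leukocyte genes were added after their values were seen, so setting this count beside that share is no test. Tyrobp, a signalling adaptor of myeloid cells, had 24.9 RPKM (WT), 219 (DKO 1) and 52.3 (DKO 2). C1qa, C1qb and Cd52 had the same order. S100a8, a neutrophil gene, was instead highest in DKO 2 (3.04, 72.2 and 108 RPKM), and the complement gene C1qc lay on either side of WT (9.43, 25.1 and 0.111 RPKM). So did Csf1r (0.376, 0.690 and 0.136 RPKM), a listed gene that stayed below the threshold on low values and was not tested. Ptprc, the pan-leukocyte gene, Cd3e, Cd68, Cd79a and S100a9 had values of 0 in WT and in both DKO libraries. Ptprc and S100a9 were listed at 0 for each of several transcripts, and such zeros can be failed estimates, as for Psma7. These zeros therefore do not show that the genes were silent. The part of leukocytes in the level of Psmb10 was not tested.

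The base of the regulatory particle was the only role with more than 1 tested member in which each lay below WT in both DKO libraries. This held for 5 of 5 ATPase genes, against 31.0% of all tested transcripts, and for 4 of 5 with quantile normalization. Psmc2 (chromosome 5, 21785275 to 21803787) had 69.9 RPKM (WT), 31.3 (DKO 1) and 29.9 (DKO 2). The DKO libraries were nearly equal and WT was more than 2-fold above both (2.23 and 2.34 times). Its limma log2 difference was −1.17 (SE 0.77, 95% interval −2.84 to 0.51, adjusted p = 0.999), the lowest of the 26 members. Psmc3 (chromosome 2, 91054016 to 91059438) had 97.8, 75.6 and 52.0 RPKM, with DKO 2 lowest.

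The remaining ATPase genes were lowest in DKO 1. Psmc1 (chromosome 12, 100110202 to 100123364) had 113 RPKM (WT), 56.6 (DKO 1) and 96.3 (DKO 2). Psmc4 (chromosome 7, 28041702 to 28050092) had 52.1, 18.8 and 48.7 RPKM, and Psmc5 (chromosome 11, 106256185 to 106263112) had 75.0, 28.0 and 74.5 RPKM. For Psmc5 the ratio of DKO 2 to WT was 0.993, with a counting interval of 0.950 to 1.04 that includes 1, so its place below WT in DKO 2 was not detectable at this depth. The base median difference was −1.13 in DKO 1 and −0.22 in DKO 2, and the summed level was 0.516 and 0.740 of WT. Psmd4, the ubiquitin receptor Rpn10, was listed at 0 for both of its transcripts, and the base genes Psmc6, Psmd1 and Psmd2 were not analysed here.

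Only 3 lid genes were tested, and they went different ways. Psmd7, which pairs with the deubiquitinase subunit (chromosome 8, 107580380 to 107588482), had 130 RPKM (WT), 85.6 (DKO 1) and 74.6 (DKO 2). Both DKO libraries were low and close together, as they were for Psmc2. Psmd13 (chromosome 7, 140882394 to 140898642) had 34.7, 37.8 and 35.4 RPKM, the narrowest spread of any member. Psmd3, a scaffold subunit (chromosome 11, 98682554 to 98695978), had 9.03, 7.79 and 11.7 RPKM, the lowest level of a core, base or lid gene. The limma log2 differences of Psmd13 and Psmd3 were both 0.07, and their sign turned under other scalings of the libraries, as did that of Psma6 (0.08). The deubiquitinase gene Psmd14 itself and Psmd6, Psmd8, Psmd11 and Psmd12 were not analysed here.

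The alternative caps were expressed at lower levels. Psme1 (chromosome 14, 55578494 to 55581527), a subunit of the interferon-induced cap, had 54.4 RPKM (WT), 39.8 (DKO 1) and 46.5 (DKO 2). Its partner gene Psme2 (chromosome 14, 55587440 to 55591101) had only 0.893, 1.16 and 1.96 RPKM in one transcript, or about 42, 34 and 64 reads, and was listed at 0 in the other. The ratio of DKO 1 to WT was 1.30 with a counting interval of 0.788 to 2.06, which includes 1. Psme2b, the retrogene copy, had 0.815, 1.14 and 0.525 RPKM, and reads of the pair are uncertain. Psme3, the nuclear cap subunit (chromosome 11, 101316213 to 101323537), had 6.30, 4.36 and 12.9 RPKM, with DKO 2 at 2.95 times DKO 1. Of the assembly chaperones, Psmg4 had 3.04, 2.65 and 4.85 RPKM in one transcript and 0 in the other, and Psmd10 was listed at 0. Psmc3ip, which is no subunit, had 93.6, 70.7 and 65.3 RPKM.

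**Figure D3:**
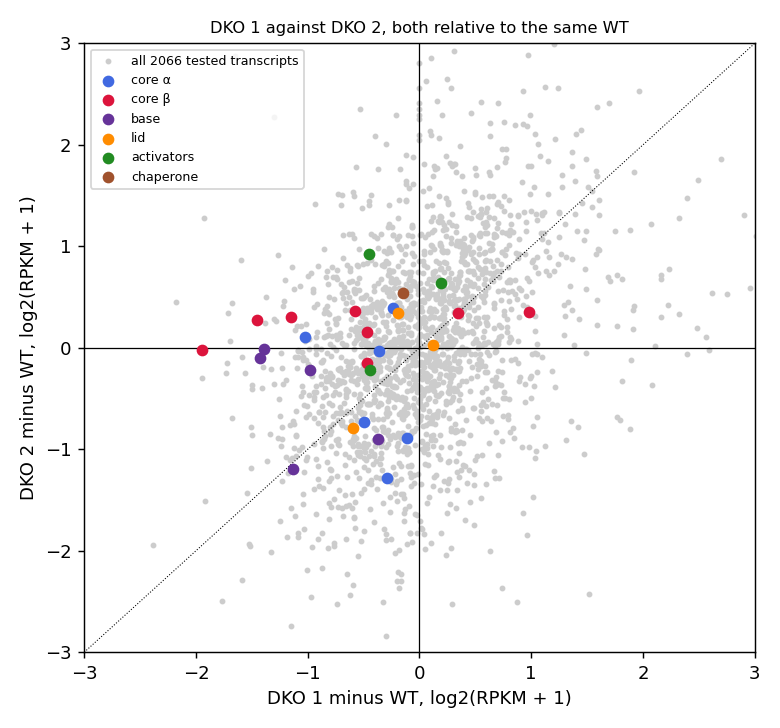
Difference from WT in DKO 1 (x axis) and in DKO 2 (y axis), in log2(RPKM + 1), for 2066 tested transcripts (grey) and the members (coloured by role), with the dotted line marking equal differences; 42 transcripts lie outside the plotted range. Each tested base gene and most beta genes lie below WT in DKO 1, whereas Psmb3 and Psmb10 lie above it. Psma1, Psmc2, Psmc3 and Psma3 lie lowest of the members in DKO 2. Both axes use the same WT library, so the grey cloud leans along the dotted line in part for that reason.

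Levels kept nearly the same order in the 3 lungs. Across the 26 members, Spearman's rho was 0.94 between WT and DKO 1, 0.97 between WT and DKO 2 and 0.93 between DKO 1 and DKO 2, beside 0.89, 0.80 and 0.81 over all tested transcripts. These are descriptions across genes, and genes are not independent replicates. The difference of DKO 2 from WT varied with base composition: its rho with the GC content of the transcript was 0.45 over the members and 0.31 over 2049 tested transcripts with a known sequence. For DKO 1 the same values were 0.09 and 0.01. The alpha genes Psma1 (44.0% GC) and Psma3 (40.8%) were AT-rich and lowest in DKO 2, while Psmb5 (56.6%) and Psmb6 (55.8%) were GC-rich and highest there. Others went against this order: Psmc3 (55.1%) was GC-rich and low in DKO 2, and Psma2 (39.4%), the most AT-rich member, was at 0.976 of WT there. GC content was that of the longest matched GENCODE transcript. For Psma2 (2911 bases) and Psma3 (2846 bases) it may be longer than the transcript measured, so their GC content is uncertain. The part of base composition in these differences was not tested. The 26 members lie on many chromosomes, and Psmb3, Psmb6, Psmc5, Psmd3 and Psme3 share chromosome 11. Of these 5, 4 were lowest in DKO 1, beside 61.5% of all 26 members and 32.2% of all tested transcripts. Psmb3 was lowest in WT.

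Of 63 other genes of the ubiquitin-proteasome pathway listed, 31 had a transcript in the table, 11 of these were listed at 0 throughout, and 14 transcripts were tested. None of the 14 passed limma (adjusted p of 0.999 for each, and 0 with an unadjusted p under 0.05). Both DKO libraries lay below WT for 8 of them and above for 1, beside 31.0% and 32.1% of all tested transcripts, and their median difference was −0.34, beside −0.01 over all tested transcripts. Sem1, a small lid subunit outside the symbol rule, had 10724 RPKM (WT), 8608 (DKO 1) and 8638 (DKO 2), above every Psm gene. Vcp, the segregase that extracts ubiquitinated proteins, had 52.5, 28.1 and 43.2 RPKM, and so was lowest in DKO 1 like most base ATPases.

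Among ubiquitin genes and enzymes, the polyubiquitin gene Ubb had 82.4 RPKM (WT), 73.1 (DKO 1) and 281 (DKO 2). DKO 2 alone stood high (log2 difference 0.79, SE 0.93, limma adjusted p = 0.999). The conjugating enzyme genes Ube2l3 (348, 215 and 294 RPKM) and Ube2b (103, 145 and 67.9 RPKM) had different orders. Rps27a, which encodes ubiquitin fused to a ribosomal protein, had 14.8, 11.4 and 9.79 RPKM. Akirin2, which brings proteasomes into the nucleus, was the gene above WT in both DKO libraries, with 9.26, 13.3 and 11.2 RPKM. The deubiquitinase genes Usp7 (2.85, 2.74 and 2.84 RPKM) and Usp5 (6.86, 6.30 and 7.72 RPKM) hardly varied. Uchl1, a ubiquitin hydrolase gene of neurons and neuroendocrine cells, had 3.19, 2.81 and 0.357 RPKM, with DKO 2 far below. Nfe2l2, which encodes NRF2, had 5.46, 5.69 and 1.92 RPKM and was also low in DKO 2 alone. Zfand5 (4.47, 3.89 and 2.46 RPKM) and the shuttle gene Rad23b (9.53, 6.43 and 7.96 RPKM) were below WT in both DKO libraries, and the conjugating enzyme gene Ube2e1 had 1.25, 3.53 and 0.316 RPKM.

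**Figure D4:**
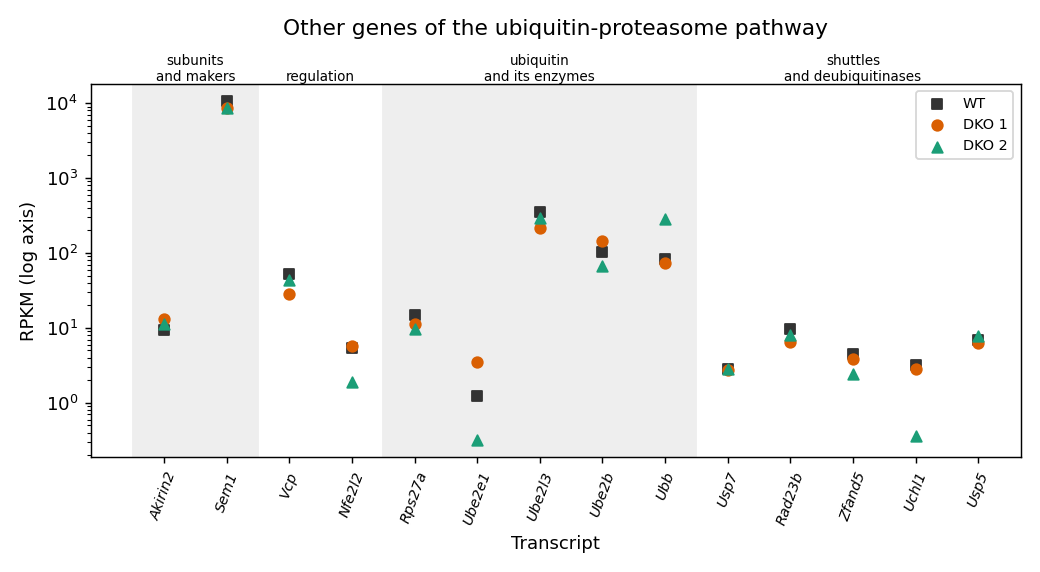
RPKM (log axis) of the 14 tested transcripts of other ubiquitin-proteasome genes in WT (squares), DKO 1 (circles) and DKO 2 (triangles), 1 point per library, grouped by function. Sem1 lies highest, between 8608 and 10724 RPKM, and Ubb stands out by its DKO 2 value of 281 RPKM.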

How the data were processed

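Total RNA of whole lung was extracted with Trizol and made into libraries with the SMARTer Ultra Low Input kit, per the labels' protocols. The submitters' processing notes name cutadapt, TopHat2, HTSeq, edgeR and mm10; their versions, and the strandedness, transcript lengths and scaling total, are not given in these sources. The table that the authors deposited holds RPKM (reads per kilobase of transcript and library size) for 16383 RefSeq transcripts up to NM_015816, and 68.0% were listed at 0 in all 3 libraries. RefSeq (GRCm38.p6) and GENCODE M21 named 16228.

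Values were analysed as log2(RPKM + 1) for the 2066 transcripts that averaged 1 RPKM or more, with limma 3.58.1 in R 4.3.3 (trended moderation, two-sided, Benjamini-Hochberg adjusted p under 0.05). The fit had 1 residual degree of freedom and a prior of 11.2, and the procedure was tested on simulated data. The WT group had 1 library and added no spread, so the residual spread came from the DKO libraries alone. Nothing in the labels ties each DKO library to its own animal, so p-values rest only on the spread between these DKO samples.

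Read numbers were estimated from the smallest step of RPKM times annotated length. Of values up to 100 reads, 33.7% in WT, 33.1% in DKO 1 and 35.6% in DKO 2 lay within 0.05 of a whole read. A step set without regard to the values gives 10%, but this step was chosen to make low values whole most often. The comparison with 10% is therefore no test of the step. Most values were not whole, so read numbers and the intervals drawn from them are approximate. Intervals are at the 95% level. They cover counting error only and leave out the spread between lungs. PCR copies are not independent molecules, so the intervals may be too narrow even for counting error.

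Members and lists were chosen with earlier results of these data known. Every tested member is named, as is every tested gene of the pathway list as used here; Psmc3ip, Psme2b, Alb and the leukocyte genes were added after their values were seen. One gene was removed from the pathway list and is not reported here. Alternatives were other pseudocounts, thresholds on low values, scalings and moderation, and leaving out each DKO library.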

Additional observations from a re-analysis of the deposited data

How the results depend on the processing

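With 1 WT and 2 DKO libraries, no member passed in any of 302 fits of single members over 12 settings, with a limma adjusted p between 0.922 and 0.999. The number of transcripts called in the whole table was 2. It was 13 with a pseudocount of 0.1 RPKM, 1 with 5 RPKM, 0 without a threshold on low values, 10 with a threshold of 5 RPKM and 7 with one of 50 RPKM (chosen after seeing the data). Median scaling gave 16, quantile normalization 0, TPM 0, and scaling without haemoglobin and mitochondrial transcripts 17. TPM moved the median of all transcripts from −0.01 to −0.22. The member median was −0.38 and ran from −0.46 to 0.01 when either DKO library was left out, so without DKO 1 it vanished. With TPM it was −0.61, and the core median −0.59. The core median was −0.37 and ran from −0.47 to 0.13, the base median was −0.70 and ran from −1.13 to −0.22, and the lid median was 0.07 and ran from −0.19 to 0.03. The lid median was also −0.69 with the 50 RPKM threshold, which left 1 lid gene, and −0.15 with TPM. The 4 members above WT in both DKO libraries became 2 with the 50 RPKM threshold and 1 with TPM. Psmd3 turned to −0.009 with median scaling, −0.02 with quantile normalization, −0.14 with TPM and −0.001 without haemoglobin; Psmd13 to −0.01, −0.03, −0.15 and −0.004 in the same order. Psma6 turned to −0.01, −0.15 and −0.002 with median scaling, TPM and removal of haemoglobin. The cause of these shifts was not tested. Leaving out a DKO library leaves no residual degree of freedom, so those values carry no test and no count of calls. No paired analysis was possible because WT had 1 library.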
